A study of Rattus norvegicus with 3 samples.

Results

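The genes described here are 9 that act late in red-cell development, when an erythroblast is remodelled into a reticulocyte: Bnip3l, Isca1, Mkrn1, Fbxo7, Trim58, Trim10, Xpo7, Hemgn and Tent5c. They were chosen by symbol among 15037 named genes, and each had 1 feature on the array, so that no choice between features arose. Their RNA was read in rat blood platelets on 3 arrays, 1 each for sorafenib-loaded platelets (SOR-PLT), lenvatinib-loaded platelets (LEN-PLT) and control platelets (PLT). All came from normal F344 rats, an inbred strain. The labels name no genetic change in any group and give neither age nor sex of the animals. Each array held RNA pooled from 5 rats, and the labels read as if the blood of each rat was divided among the groups. There are thus no replicates, and no p-value or error is given. Sorafenib and lenvatinib, both oral inhibitors of several kinases used in liver cancer, were each loaded at 10 µg for 30 minutes at 37 °C. The loaded platelets were then washed, and the labels call them drug-encapsulated. Whether the control platelets went through the same incubation and wash is not in the labels, so handling and drug cannot be told apart in a difference from control.

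As background, the last steps of red-cell formation take the cell apart in order. The chromatin condenses and the nucleus is expelled, mitochondria and ribosomes are cleared, and ubiquitin ligases mark proteins of the old cell for the proteasome while haemoglobin RNA is kept. Megakaryocytes, the parents of platelets, arise from a progenitor shared with the red-cell line and use many of the same transcription factors, among them GATA1 and NF-E2. Platelets lack a nucleus, and much of their RNA comes from the megakaryocyte. A platelet preparation can also hold reticulocytes, which carry the same genes' RNA.

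Promoter sequence was set beside the signals because the red-cell and megakaryocyte lines share such factors. Whether these factors act on the genes described here was not tested. RefSeq promoters of rat build GRCr8 were matched by gene ID for 6 of the 9 genes. Fbxo7, Isca1, Mkrn1, Trim10 and Trim58 had 1 each and Hemgn had 2, while Bnip3l, Tent5c and Xpo7 were not matched. The 250 bases before each start site were searched on both strands for the GATA letters AGATAA or TGATAA and for the NF-E2 letters TGAGTCA, whose reverse complement is TGACTCA. Of these 7 promoters, 4 held the GATA letters, against 16.9% of 33469 rat promoters, and 1 held the NF-E2 letters, against 4.05%. A match describes letters and is not a bound site. The 4 with the GATA letters are printed with all matches in capitals, read 5′ to 3′ on the gene's strand and ending at the base before the start site. They belong to 2 genes with signal above background (Mkrn1 and Hemgn) and 2 without (Trim10 and Trim58).
Hemgn, downstream start, chr5:65485822-65486071, minus strand: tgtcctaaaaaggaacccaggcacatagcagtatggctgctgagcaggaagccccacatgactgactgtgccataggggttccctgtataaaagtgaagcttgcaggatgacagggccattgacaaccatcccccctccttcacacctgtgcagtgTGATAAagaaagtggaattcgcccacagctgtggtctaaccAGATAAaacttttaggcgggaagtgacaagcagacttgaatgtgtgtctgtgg
Mkrn1, chr4:69163986-69164235, minus strand: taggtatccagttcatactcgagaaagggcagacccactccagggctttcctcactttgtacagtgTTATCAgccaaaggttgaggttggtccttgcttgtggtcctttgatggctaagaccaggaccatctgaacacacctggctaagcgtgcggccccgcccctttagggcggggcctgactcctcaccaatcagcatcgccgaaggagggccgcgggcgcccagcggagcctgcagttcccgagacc
Trim10, chr20:1703470-1703719, minus strand: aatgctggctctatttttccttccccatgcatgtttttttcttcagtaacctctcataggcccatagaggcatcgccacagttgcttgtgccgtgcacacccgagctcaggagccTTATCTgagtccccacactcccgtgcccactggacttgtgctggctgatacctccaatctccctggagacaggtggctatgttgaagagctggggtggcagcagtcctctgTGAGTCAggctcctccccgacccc
Trim58, chr10:43523154-43523403, plus strand: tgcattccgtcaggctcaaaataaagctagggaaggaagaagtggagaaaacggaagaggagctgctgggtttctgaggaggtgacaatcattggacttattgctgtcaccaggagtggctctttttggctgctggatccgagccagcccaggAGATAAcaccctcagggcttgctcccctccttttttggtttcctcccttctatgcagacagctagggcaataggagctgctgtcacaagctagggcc
In Hemgn the AGATAA began 53 bases and the TGATAA 94 bases before the start site. In Trim58 the AGATAA began 97 bases before it. Trim10 held the reverse complement of AGATAA from 135 bases before the start site and the NF-E2 letters from 24 bases before it. Mkrn1 held the reverse complement of TGATAA from 184 bases before the start site.

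Values are log2 signals, where a difference of 1 is 2-fold, and differences are the first array named minus the second. The background level used here, 7.69, is the 95th percentile of the means of 1153 negative control features. Some controls were far brighter, with the brightest at 18.84 in SOR-PLT, 18.95 in LEN-PLT and 18.97 in PLT. The highest value on every array was a shared ceiling of 19.93. Of the 15037 named genes, 1961 had a mean that reached the background level. Of 15 measured platelet markers 14 reached it, as did 1 of 11 neutrophil markers, 2 of 7 monocyte markers and 0 of 9 T and B cell markers. Red-cell and reticulocyte markers were present on all arrays, with 13 of 19 reaching it and Hba-a1, an alpha globin, at the ceiling throughout.

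Among the late erythroid genes, 5 of 9 reached the background level: Mkrn1, Bnip3l, Isca1, Tent5c and Hemgn. The shares of negative control features at or above their means were 0.087%, 0.43%, 0.78%, 0.87% and 2.5%, in that order. Xpo7, Fbxo7 and Trim58 lay below it but above the median of all genes, 4.25, and Trim10 lay below that median. On each of the 3 arrays separately, 5 members reached the 95th percentile of that array's own negative controls. All 9 members kept the same place in the order of brightness on the 3 arrays. Brightness depends on a feature's probes as well as on RNA, so this order is not an order of RNA amounts.

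**Figure D1:**
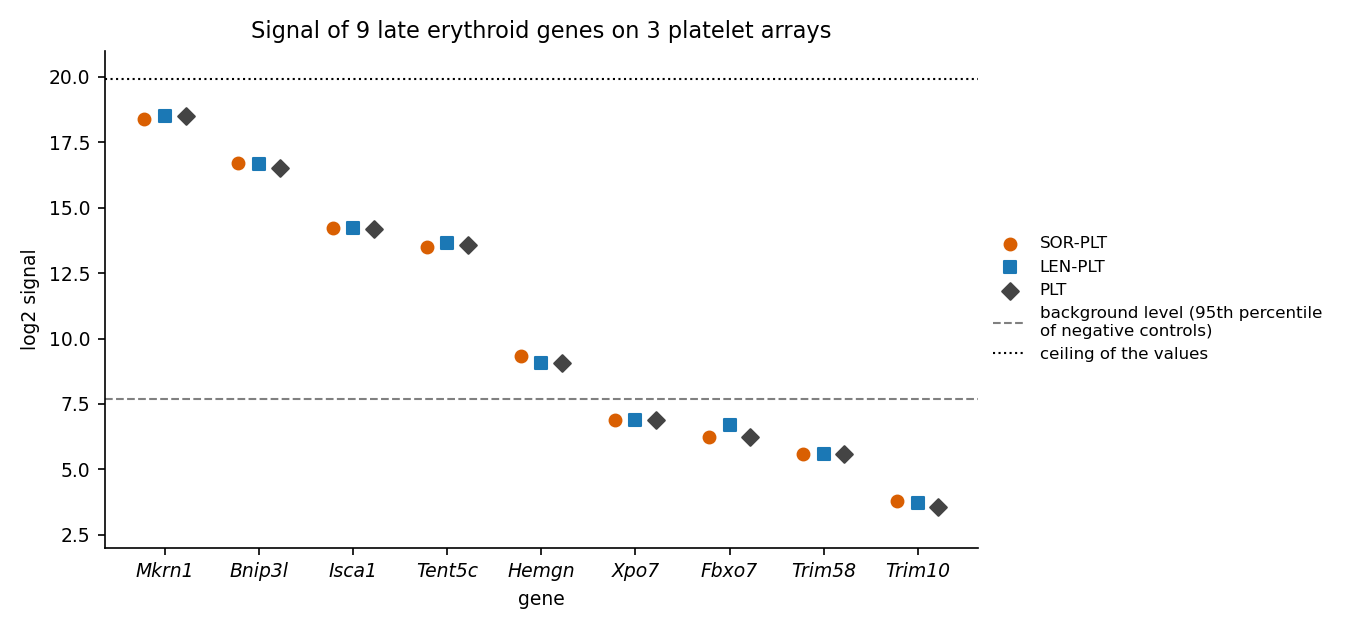
Log2 signal (vertical axis) of each of the 9 genes (horizontal axis, by mean signal) in SOR-PLT, LEN-PLT and PLT, 1 point per array, with the background level at 7.69 (dashed) and the ceiling at 19.93. The 3 points of a gene lie within 0.46 of each other, and Xpo7, Fbxo7, Trim58 and Trim10 lie below the dashed line on every array.

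The genes of the mitochondrion come first. Bnip3l (also called Nix), a receptor on the outer mitochondrial membrane that directs mitochondria of mouse reticulocytes to autophagy, read 16.69 in SOR-PLT, 16.67 in LEN-PLT and 16.50 in PLT. Both drug arrays lay above control, by 0.19 with sorafenib and 0.17 with lenvatinib, or 1.14-fold and 1.12-fold. Over all signals above the background level, 31.1% and 40.5% of the 1961 genes were as far from control in either direction. At mean signals of 16 and above, where Bnip3l lies, the SD of differences over 230 genes was 0.13 for sorafenib and 0.16 for lenvatinib. The median absolute differences there were 0.04 and 0.06. Bnip3l was thus further from control than most genes of such signals, though with no replicates to set this against. Isca1, which helps to build iron-sulfur clusters in mitochondria, read 14.24 in each drug array and 14.20 in PLT, and its differences were 0.05 with sorafenib and 0.04 with lenvatinib.

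Of the ubiquitin ligases, Mkrn1 and Fbxo7 read differently on 1 of the arrays and were tied on the other 2. Mkrn1, a RING-finger ubiquitin ligase, read 18.38 in SOR-PLT, 18.51 in LEN-PLT and 18.51 in PLT. The sorafenib array was thus the low one, with a difference of -0.14 from control. Mkrn1 lay 1.42 below the ceiling at its brightest.

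Fbxo7, the substrate-binding subunit of an SCF ubiquitin ligase and a partner of the proteasome regulator encoded by Psmf1, read 6.22 in SOR-PLT, 6.68 in LEN-PLT and 6.22 in PLT. Lenvatinib was the high array, and 0.46, or 1.37-fold, was the largest difference between any 2 arrays among the 9 genes. Of the genes above the median signal, 11.3% were as far apart in lenvatinib minus control. Its mean signal, 6.37, was under the background level, and 10.5% of negative control features had a mean at or above it.

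The remaining ligase genes gave low signals. Trim58, a ligase that acts on the motor dynein in mouse erythroblasts, read 5.58 on all 3 arrays. Trim10, a RING protein needed for terminal differentiation of mouse erythroleukaemia cells, read 3.80 in SOR-PLT, 3.70 in LEN-PLT and 3.57 in PLT. Its mean was exceeded or equalled by 66.4% of negative control features, so its values cannot be told from background. For Trim58 that share was 16.6%.

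The members tied to the nucleus did not share a pattern. Xpo7, a nuclear export receptor implicated in chromatin condensation of mouse erythroblasts, read 6.88 on all 3 arrays, below the background level. Hemgn, hemogen, a nuclear protein of blood-forming cells, read 9.35 in SOR-PLT, 9.08 in LEN-PLT and 9.07 in PLT. Here sorafenib was the high array, by 0.28 or 1.21-fold against control, the largest difference from control among the members above the background level. Of the genes above the background level, 20.3% were as far from control with sorafenib. The lenvatinib array lay 0.01 above control, and this sign turned under quantile normalization, where the difference was -0.013.

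Tent5c, a cytoplasmic enzyme that lengthens poly(A) tails, read 13.51 in SOR-PLT, 13.63 in LEN-PLT and 13.56 in PLT. Control lay between the drug arrays, with differences of -0.05 with sorafenib and 0.07 with lenvatinib. Most genes above the background level were at least as far from control, 61.7% with sorafenib and 60.2% with lenvatinib.

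Trim58 and Xpo7 had exactly the same value on all 3 arrays, and Mkrn1 and Fbxo7 had it on a pair of arrays. Of all named genes 17.3% were tied on all 3 arrays and 40.3% on a pair of them, so that ties are a common feature of the deposited values. How those values were made is not stated in the labels, and a tie does not show that the RNA was the same.

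Set against control, the sorafenib array had 4 members higher, 2 lower and 3 tied, where 34.9% of all named genes were higher, 34.5% lower and 30.5% tied. Hemgn, Trim10, Bnip3l and Isca1 were the higher ones and Mkrn1 and Tent5c the lower ones. No member was 2-fold apart; of all named genes 0.213% reached 2-fold upwards and 0.299% downwards. A low-signal filter at the median of all genes passed 8 members and 7519 genes, and the median difference was 0 over each. Of the 5 members above the background level 3 were higher and 2 lower, against 39.8% higher, 38.9% lower and 21.3% tied among genes at such signals. Under median centring, quantile and cyclic loess normalization, which part tied values, 5, 4 and 3 of the 9 members were lower. At the lowest, the tied Fbxo7, Trim58 and Xpo7 then read -0.008, -0.009 and -0.005. Shares of all named genes were not counted under these normalizations.

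Set against the same control, the lenvatinib array had 6 members higher, 0 lower and 3 tied, where 35.4% of all named genes were higher, 35.1% lower and 29.5% tied. Under median centring, quantile and cyclic loess normalization the tied values parted, and 3, 4 and 3 members were lower, by at most 0.03. Shares of all named genes were not counted there either. Fbxo7 was furthest, followed by Bnip3l at 0.17, Trim10 at 0.12, Tent5c at 0.07, Isca1 at 0.04 and Hemgn at 0.01. No member was 2-fold apart; of all named genes 0.279% reached 2-fold upwards and 0.259% downwards. The 8 members that passed the low-signal filter had a median of 0.03, and all genes that passed had 0. Of the 5 above the background level 4 were higher and 1 was tied, against 41.2% higher, 39.2% lower and 19.6% tied among genes at such signals, and their median was 0.04. Both comparisons use 1 control array, so a low or high control reading moves both differences of a gene alike.

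**Figure D2:**
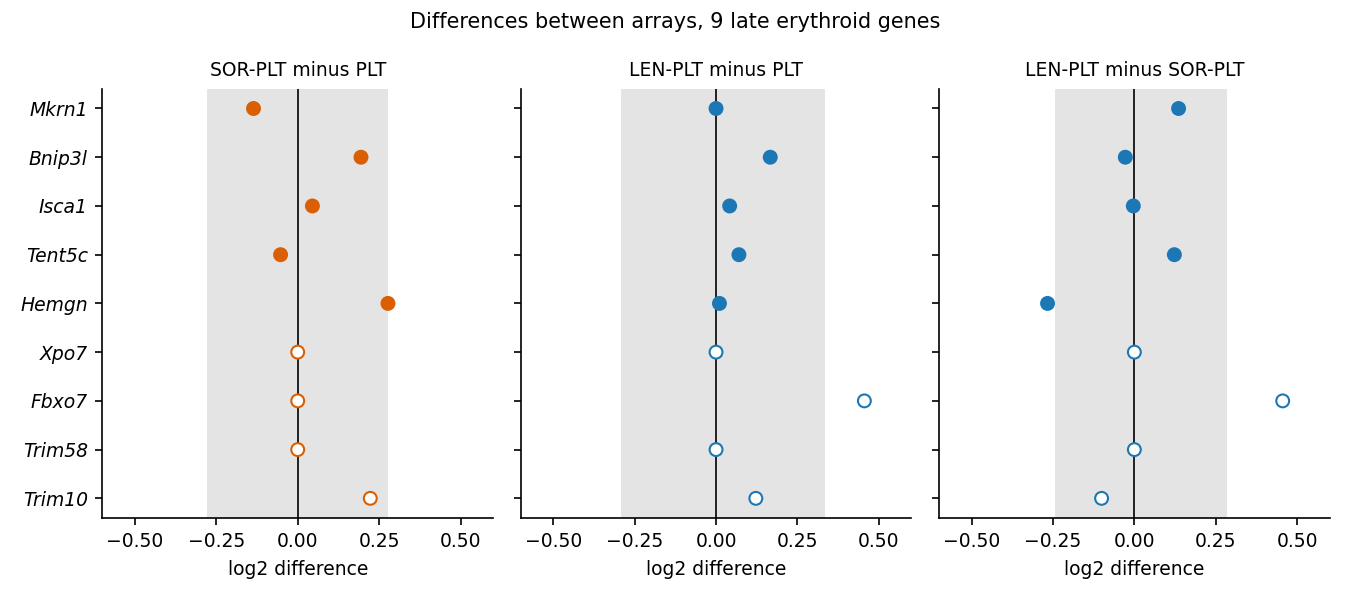
Log2 difference (horizontal axis) of each gene for SOR-PLT minus PLT, LEN-PLT minus PLT and LEN-PLT minus SOR-PLT. Filled points are genes above the background level and open points those below, and grey bands span the 10th to 90th percentile of differences over 1961 genes above the background level. All 9 members lie within the band for sorafenib minus control, all but Fbxo7 for lenvatinib minus control, and all but Fbxo7 and Hemgn between the drugs.

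The drugs were compared directly at the same mass and time. In lenvatinib minus sorafenib 3 members were higher, 4 lower and 2 tied, against 34.6%, 33.4% and 32.1% of all named genes. The higher ones were Fbxo7 at 0.46, Mkrn1 at 0.14 and Tent5c at 0.12, and the lower ones were Hemgn at -0.27, Trim10 at -0.10, Bnip3l at -0.03 and Isca1 at -0.0032. With each of those 3 normalizations 3 members were higher and 6 lower, because the tied Trim58 and Xpo7 parted. Their lowest readings there were -0.010 and -0.016. Shares of all named genes under them were not counted, so this split has no background beside it. The 8 members that passed the low-signal filter had a median of 0. Of the 5 members above the background level 2 were higher and 3 lower, against 42.8% higher, 34.4% lower and 22.8% tied among genes at such signals. No member was 2-fold apart; of all named genes 0.186% reached 2-fold upwards and 0.113% downwards.

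**Figure D3:**
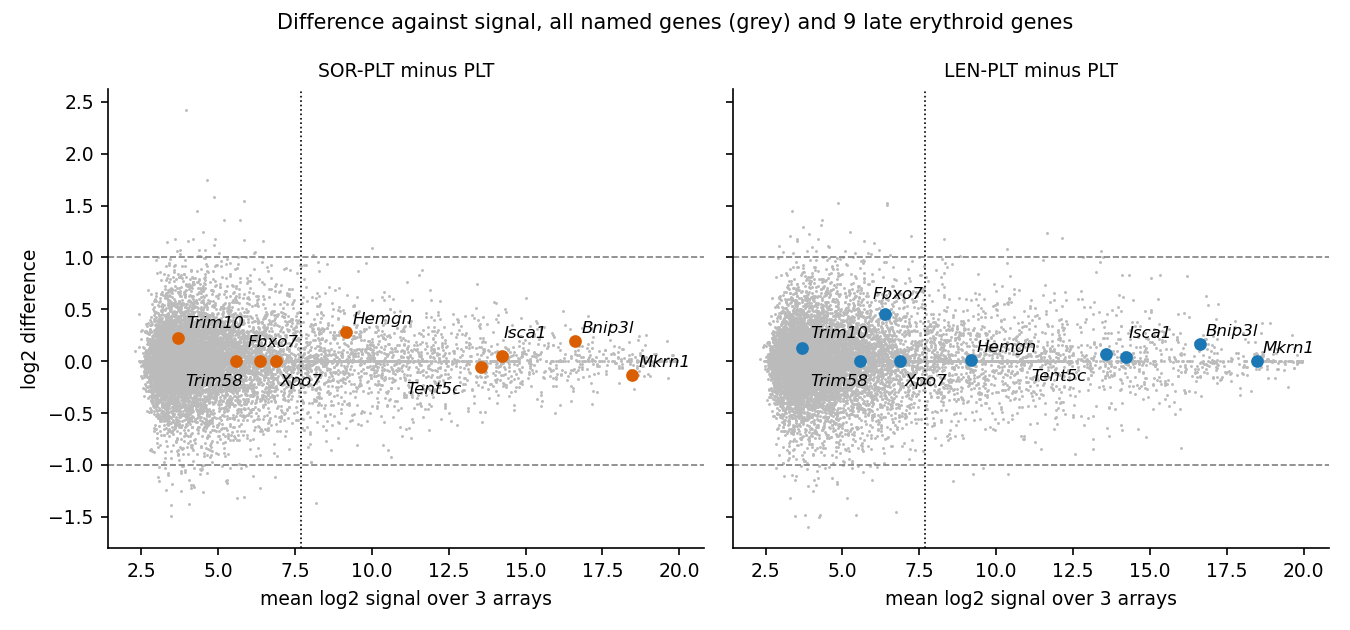
Log2 difference from control (vertical axis) against mean log2 signal over the 3 arrays (horizontal axis) for all 15037 named genes in grey, with the 9 members in colour, for sorafenib on the left and lenvatinib on the right. Dashed lines mark 2-fold, the dotted line marks the background level, and no member lies beyond the dashed lines.

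Reticulocytes are another known source of these transcripts, and red-cell markers were read beside the members. Of 19 measured red-cell and reticulocyte markers, 16 were higher, 1 lower and 2 tied in lenvatinib minus control, and their median was 0.18. That median was the value of Bcl2l1, a listed gene that is expressed by more than 1 of the cell types with marker lists here. The shares of all named genes were 35.4%, 35.1% and 29.5%. Under median centring, quantile and cyclic loess normalization 15 were higher each time and 4, 3 and 4 lower. In sorafenib minus control 8 were higher, 6 lower and 5 tied, against 34.9%, 34.5% and 30.5%, and the median was 0. There the same normalizations gave 8, 9 and 13 higher and 11, 8 and 6 lower, with medians of -0.005, 0 and 0.005. These counts changed as tied values parted, and the list showed no clear direction with sorafenib. The mean log2 signal of the list was 10.20 in SOR-PLT, 10.51 in LEN-PLT and 10.14 in PLT. Lgals5, a galectin of rat red cells, read 11.82 in SOR-PLT, 12.17 in LEN-PLT and 10.94 in PLT. Slc4a1, the red-cell anion exchanger, read 8.23 in SOR-PLT, 8.78 in LEN-PLT and 7.93 in PLT. Cat, catalase, read 11.14 in SOR-PLT, 12.19 in LEN-PLT and 11.45 in PLT, 2-fold apart between the drug arrays. In lenvatinib minus sorafenib 16 markers were higher, 1 lower and 2 tied, against 34.6%, 33.4% and 32.1% of all named genes. Of the 13 markers above the background level 10 were higher, 1 lower and 2 tied. Of the 5 members at such signals 2 were higher and 3 lower. All genes there were 42.8% higher, 34.4% lower and 22.8% tied. In lenvatinib minus control the 5 members above the background level reached at most 0.17, and 13 markers at such signals had a median of 0.16 and a highest value of 1.23. The part of red-cell RNA in the members' readings was not tested. In these pooled samples, fewer cells of a type and less RNA per cell cannot be told apart.

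Genes that work with the members were read from lists of related function, beside the shares of all named genes given above, 34.9% higher and 34.5% lower in SOR-PLT against PLT, and 35.4% higher and 35.1% lower in LEN-PLT against PLT. The median over all named genes was 0 with each drug. Among 18 measured genes of mitophagy and autophagy, the process that Bnip3l serves, 9 were higher and 5 lower with sorafenib, and 5 higher and 8 lower with lenvatinib, and 11 reached the background level. Rb1cc1, a scaffold of the autophagy-initiating kinase complex, read 8.28 in SOR-PLT, 8.88 in LEN-PLT and 8.28 in PLT. Sqstm1, a cargo receptor of autophagy, read 10.07 in SOR-PLT, 9.64 in LEN-PLT and 10.20 in PLT. Fkbp8, a mitophagy receptor of the outer mitochondrial membrane, read 9.09 in SOR-PLT, 9.27 in LEN-PLT and 8.88 in PLT. Bnip3, the close relative of Bnip3l, read 10.31 on all 3 arrays. The list's median was 0.02 with sorafenib and 0 with lenvatinib.

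Among 15 measured ubiquitin enzymes of late erythroid cells, 3 were higher and 10 lower with sorafenib, with a median of -0.08, and 5 were higher and 6 lower with lenvatinib, with a median of 0. Of these, 10 reached the background level. Uba1, the main ubiquitin-activating enzyme, read 12.13 in SOR-PLT, 12.10 in LEN-PLT and 11.45 in PLT, so that both drug arrays stood above control. Maea, a subunit of the CTLH ubiquitin ligase, read 11.05 in SOR-PLT, 10.63 in LEN-PLT and 10.45 in PLT. Ube2h, the conjugating enzyme that works with that ligase, read 8.43 in SOR-PLT, 8.81 in LEN-PLT and 8.81 in PLT. Here sorafenib was the low array, as it was for Mkrn1.

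All 6 partners of Fbxo7 were measured, 2 of them higher and 4 lower in SOR-PLT and 3 each way in LEN-PLT, and 4 reached the background level. The list's median was -0.22 with sorafenib and -0.14 with lenvatinib, both over all 6 and over those 4. Cdk6, a cell-cycle kinase below that level, was the one partner 2-fold apart, at 6.28 in SOR-PLT, 6.87 in LEN-PLT and 7.39 in PLT, or -1.11 with sorafenib and -0.52 with lenvatinib. Cul1, the scaffold of SCF ligases, read 15.40 in SOR-PLT, 15.45 in LEN-PLT and 15.78 in PLT. Skp1, which links the scaffold to F-box proteins such as Fbxo7, read 12.18 in SOR-PLT, 11.91 in LEN-PLT and 12.39 in PLT. For both genes control was the high array, while Fbxo7 was tied or higher in the drug arrays. Rbx1, the RING subunit, read 10.01 in SOR-PLT, 10.29 in LEN-PLT and 10.24 in PLT. Of 10 measured relatives of the RING-finger members, 0 reached the background level.

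For the nuclear members, 11 genes of nuclear export and import divided evenly, 4 each way in SOR-PLT and 5 each way in LEN-PLT, and 4 of the 11 reached the background level. Tnpo1, an import receptor, read 11.32 in SOR-PLT, 11.72 in LEN-PLT and 11.75 in PLT. Xpo5, the exporter of microRNA precursors, read 11.09 in SOR-PLT, 11.16 in LEN-PLT and 11.09 in PLT, and Xpo6, the exporter of actin, lay 0.08 below control in each drug array. Among 10 genes of chromatin condensation and enucleation, 3 were higher and 4 lower in SOR-PLT, and 4 stood each way in LEN-PLT, with 3 of the 10 reaching the background level. Kmt5a, a histone H4 methyltransferase, read 11.43 in SOR-PLT, 11.92 in LEN-PLT and 11.47 in PLT. Lmna, lamin A/C, read 11.91 in each drug array and 11.64 in PLT. Rac1, a small GTPase of the actin skeleton, read 19.82 on all 3 arrays, near the ceiling.

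Of 14 measured erythroid transcription factors, 6 were higher and 3 lower with sorafenib, and 8 higher and 3 lower with lenvatinib, with medians of 0 and 0.05, and 7 reached the background level. Gata1 read 9.86 in SOR-PLT, 10.03 in LEN-PLT and 9.78 in PLT. Bach1, a haem-regulated repressor, read 9.58 in SOR-PLT, 9.61 in LEN-PLT and 9.30 in PLT. Foxo3 stood the other way, at 11.73 in each drug array and 11.99 in PLT. Klf1, a factor of the red-cell line, read 3.16 on all 3 arrays, far below the background level.

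Of 15 measured genes for poly(A) tails, the machinery of Tent5c, 10 were higher and 5 lower with sorafenib and 8 higher and 3 lower with lenvatinib, but 3 reached the background level. Tent4b, a poly(A) polymerase, read 8.15 in SOR-PLT, 8.76 in LEN-PLT and 8.04 in PLT. Papola, the main nuclear poly(A) polymerase, read 9.63 in SOR-PLT, 9.89 in LEN-PLT and 9.43 in PLT. Tent2 read 9.88 in SOR-PLT, 9.35 in LEN-PLT and 9.42 in PLT, so that the array furthest from control differed among these enzymes. Of 14 measured iron-sulfur genes, 4 were higher and 8 lower with each drug, with medians of -0.03 with sorafenib and -0.05 with lenvatinib. The 2 of them that reached the background level, Iscu and Cisd2, were both lower with sorafenib and divided 1 and 1 with lenvatinib. Iscu, the scaffold on which the clusters form, read 14.24 in SOR-PLT, 14.30 in LEN-PLT and 14.26 in PLT, and like Isca1 varied by less than 0.1. Cisd2, an iron-sulfur protein of the endoplasmic reticulum, read 7.53 in SOR-PLT, 7.84 in LEN-PLT and 7.92 in PLT.

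**Figure D4:**
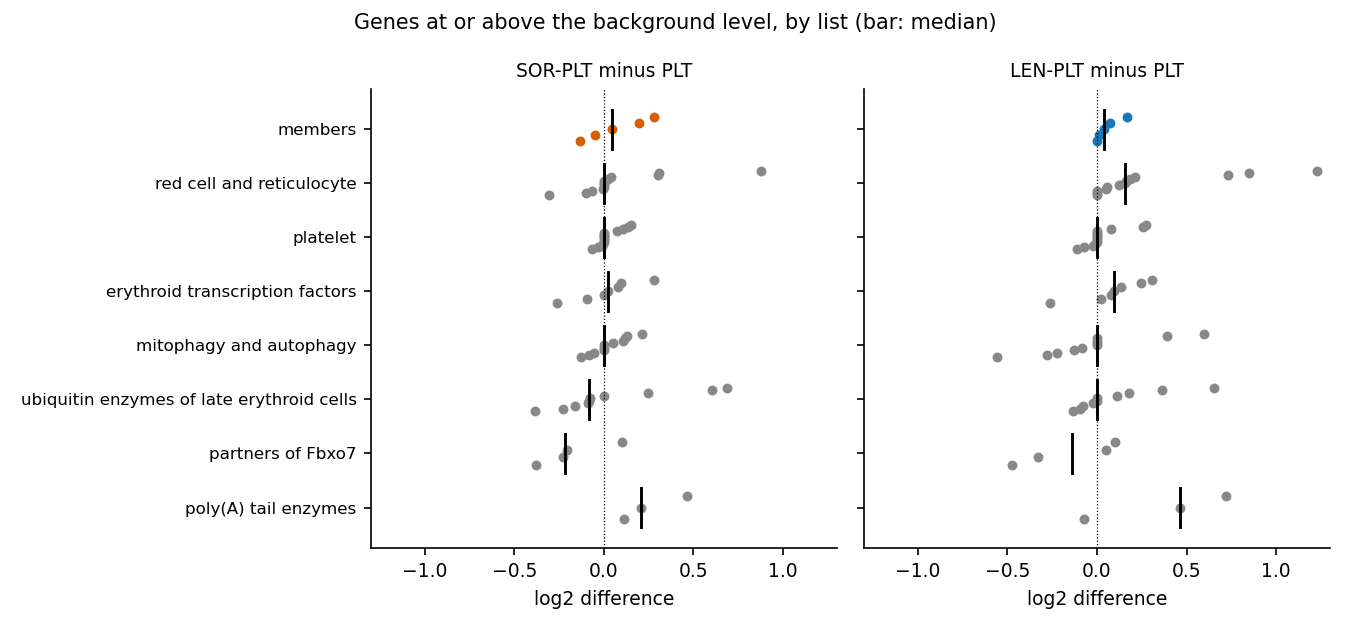
Log2 difference from control (horizontal axis) of single genes above the background level, for the members and 7 of the lists (rows), with sorafenib on the left and lenvatinib on the right. Black bars are medians: the 5 members have medians of 0.05 and 0.04, and the red-cell markers have 0 and 0.16.

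The pattern of Fbxo7, the member with the largest difference, was matched against 1942 genes above the background level and below the ceiling. Likeness was the Euclidean distance between the pair of differences from control, over 3 arrays. The 5 nearest were Mfsd1, Lgals9, Chn1, Kcnk6 and Kmt5a, at distances from 0.0086 to 0.037. Chn1, a GTPase-activating protein for Rac, read 14.89 in SOR-PLT, 15.35 in LEN-PLT and 14.88 in PLT. Lgals9, a galectin, read 9.11 in SOR-PLT, 9.55 in LEN-PLT and 9.11 in PLT. Fbxo7 itself lay below the background level, and this nearness is a description alone.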

How the data were processed

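Total RNA of pooled rat platelets carried a biotin and a phycoerythrin label, as the labels' protocols state, and was read on 3 arrays, 1 per group. The authors deposited log2 signals for 23188 features, by steps of background correction, probe summary and normalization not given in the sources used here. A second log2 table, of the whole series, matched them within 0.00005 and added the control features. Platform annotation gave exactly 1 symbol to 15049 features and not to the other 8139, which were left out. The highest-mean feature was kept per gene. The low-signal filter kept the 7519 genes whose mean reached the median gene, 4.25, with 8 of the 9 members. With 1 array per group the values are log2 differences with no test, and the number of arrays limits the precision. The 2-fold threshold is a difference of 1 in either direction. The members and the gene lists were chosen with earlier results of these data known. From each of 9 lists of related function and 5 of cell markers, the 3 members furthest from control above the background level could be named, with any that were 2-fold apart there. Bnip3, Cdk6, Hba-a1 and Klf1 were named after their values were seen. Motifs were searched with Python 3.11.15, and limma 3.58.1 gave the quantile and loess alternatives. The count of 2-fold differences was tried on altered data, in which known shifts larger than the threshold had been added to some genes. The other steps were not tried in this way.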

Additional observations from a re-analysis of the deposited data

How the results depend on the processing

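The alternatives were median centring, quantile and cyclic loess normalization, averaging a gene's features, the series value table, other filters, the mean over members and other fold thresholds. Averaging features and the series value table could not move the members, which have 1 feature each and the same values in both tables. Of 81 differences of single members under the 3 normalizations, 80 moved by less than the SD over genes without turning their sign. The sign of 1 turned: Hemgn in LEN-PLT minus PLT, at -0.013 under quantile normalization. That SD, over genes past the low-signal filter, was 0.27 in SOR-PLT minus PLT, 0.28 in LEN-PLT minus PLT and 0.25 in LEN-PLT minus SOR-PLT. Most member differences were smaller than it, so this limit is loose, and a difference of 0 could not count as turned. The 21 medians and means over the members that could move stayed within that SD. The order of brightness, an alternative added after seeing the data, held for all 9 members. Of the alternatives, only cyclic loess normalization could have changed that order. Counts of 2-fold genes, taken over the genes past the low-signal filter, changed with the filter and threshold, by construction. Those that moved by over 1.5 times follow. With no filter, 32 higher in SOR-PLT minus PLT, 42 higher in LEN-PLT minus PLT and 17 lower in LEN-PLT minus SOR-PLT did not move that far. Against 23 higher and 21 lower genes in SOR-PLT minus PLT, there were 45 lower with no filter, 10 and 7 when the filter stood at the 75th percentile, 2 and 1 at the negative controls, 204 and 193 at 1.5-fold, and 2 and 0 at 3-fold. Against 29 and 20 in LEN-PLT minus PLT, there were 39 lower with no filter, 18 and 9, 8 and 4, 259 and 214, and 0 and 0 in the same order. Against 17 and 12 in LEN-PLT minus SOR-PLT, there were 28 higher with no filter, 7 and 7, 2 and 2, 177 and 169, and 1 and 0. No paired analysis was possible because each group has 1 array. Without replicates the differences of the members cannot be set against an error, and 4 of the 9 members lie below the background level of 7.69.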
